A study of Mus musculus with 4 samples.

Results

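Macrophages and monocytes of mouse pancreatic tumours are described here from 53 cells, out of 1753 cells in the unsorted whole-tumour libraries and 6020 cells in all 4 libraries. The cells were chosen from measured values. A barcode counted as a cell with at least 500 UMIs (unique molecular identifiers, 1 per captured RNA molecule), at least 250 genes and at most 20% mitochondrial UMIs. A member then needed at least 2 UMIs of Csf1r, C1qa, C1qb and Adgre1 together and at least 5 UMIs of Lyz2, Apoe and Ctss together. It also held under 50 UMIs of S100a8 and S100a9 per 10000 UMIs, and 0 UMIs of Cd3e, Cd79a and Flt3. These genes therefore describe the members and are not tested.

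The study compared ways of preparing tumours so that their fibroblasts can be profiled by droplet RNA sequencing of single cells. Untreated C57BL/6J mice carried orthotopic pancreatic tumours grown from the KPC-4545 or the KPC-3403 cell line, harvested on day 13. For each line, 1 library held the whole tumour suspension and 1 held an enriched fraction, from which leukocytes (CD45), endothelium (CD31), epithelium (EPCAM) and red cells (TER119) had been sorted away. The labels give no number of animals per library, no age or sex, and do not say whether whole and enriched libraries came from the same tumours, so each line is 1 library per preparation.

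Monocytes enter a tumour from the blood and can mature there into macrophages, which engulf debris and present antigen. CSF1R is the receptor for the growth factor CSF1, on which both depend, and C1qa, C1qb and C1qc encode the chains of C1q, which opens the classical complement pathway. Ly6c2, Ccr2 and Plac8 are known as genes of classical monocytes, and MHC class II genes as those of antigen-presenting cells. Pancreatic tumours are known to be rich in such myeloid cells.

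The 3 C1q genes lie next to each other on the minus strand of chromosome 4 in mm10, C1qb at positions 136880129 to 136886187, C1qc at 136889804 to 136893065 and C1qa at 136895917 to 136898803 (GENCODE vM21). Their UMIs are used below to divide the members into 2 groups, so the sequence upstream of 2 of them is shown. The stretches end at or before the transcript start, are from RefSeq (GRCm38.p6, minus strand), and read 5′ to 3′ towards the gene. Capitals mark GAGGAA or its reverse complement TTCCTC, a core recognised by ETS-family factors such as PU.1.
C1qb, chr4:136886201-136886450: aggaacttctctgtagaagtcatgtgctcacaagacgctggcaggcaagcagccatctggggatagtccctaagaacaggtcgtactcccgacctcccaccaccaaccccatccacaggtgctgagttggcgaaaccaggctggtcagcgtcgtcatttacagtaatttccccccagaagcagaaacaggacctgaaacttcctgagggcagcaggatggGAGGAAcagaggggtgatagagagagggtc
C1qc, chr4:136893066-136893164: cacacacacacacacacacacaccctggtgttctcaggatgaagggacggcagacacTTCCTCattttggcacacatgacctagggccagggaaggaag
Distances are counted from the RefSeq start, which lies upstream of the GENCODE end for C1qb and inside the GENCODE gene for C1qc. The C1qb stretch is the 250 bases before the RefSeq start and held 1 match, 30 bases upstream, and the C1qc stretch of 99 bases, from 250 to 152 bases upstream, held 1 match 193 bases upstream. Searched on both strands, these 6 letters occurred in 23.3% of 32851 upstream windows of 250 bases, so a match is common and is a description only.

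Total UMIs were 5746733 in the whole KPC-4545 library, 13990046 in the whole KPC-3403 library, 47207893 in the enriched KPC-4545 library and 51450719 in the enriched KPC-3403 library. Whole KPC-3403 and enriched KPC-4545 shared 139 cell barcodes, against 6 to 11 for each of the other 5 pairs. The shared barcodes had a median of 29006 UMIs in the whole KPC-3403 library and 785 in the enriched KPC-4545 library, and 132 of them were deeper in the former. Among the members, 2 of KPC-3403 carried such a barcode, with 10422 and 14924 UMIs against 521 and 545, and results that change without shared barcodes are given both ways.

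Members were 23 of 536 cells in KPC-4545, or 4.29% (exact Clopper-Pearson 95% interval 2.74 to 6.37), and 30 of 1217 cells in KPC-3403, or 2.47% (1.67 to 3.5). They held 6.52% and 2.23% of the UMIs in cells. Intervals of shares and ratios cover counting error only. The median member had 7809 UMIs in KPC-4545 (548 to 38111) and 6757.5 in KPC-3403 (648 to 18100). In the enriched libraries, from which CD45-positive cells were sorted away, 4 cells of KPC-4545 (0.236%) and 62 of KPC-3403 (2.41%) met the same thresholds. All 62 held at least 5 UMIs of the fibroblast markers Col1a1, Col1a2, Col3a1, Dcn and Pdgfra, none held a UMI of Ptprc, the gene of CD45, and 3 held Lyz2. The mean share was 2.06 percentage points higher in whole than in enriched libraries, and 3.0 points where Lyz2 was required, which is a description because the same genes chose the cells.

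Few cells lay next to the thresholds, except at the receptor and C1q threshold in KPC-3403. At the receptor and C1q threshold, 3 members of KPC-4545 and 1 of KPC-3403 held exactly 2 UMIs, while 1 and 15 cells that met every other criterion held 1. At the threshold on Lyz2, Apoe and Ctss no member held 5 UMIs, and 0 and 2 cells held 4. The limit on S100a8 and S100a9 removed no cell, and the absence of Cd3e, Cd79a and Flt3 removed 1 and 2.

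Lyz2, which encodes lysozyme, was the most abundant rule gene, with a median of 90 UMIs per member in KPC-4545 and 42.5 in KPC-3403, and it was found in 21 of 23 and 29 of 30 members. Csf1r was present at a median of 3 and 3.5 UMIs, up to 26 and 15 in 1 cell. C1qb summed to 453 and 282 UMIs, C1qa to 272 and 135, and the lipid carrier Apoe to 982 and 482. Adgre1, the gene of the macrophage antigen F4/80, was sparse, in 8 and 6 members, and Ptprc was found in 16 and 21. At their full depth, 47.8% and 56.7% of members held a UMI of C1qb. Thinned to 1000 UMIs each, which left out 3 and 2 shallower members, 45.0% of 20 and 35.7% of 28 did. As C1qb helped to choose the members, B cells only show its background. None held a UMI of it: 0 of 171, which allows a share of up to 1.75%, and 0 of 123, up to 2.44%, at median depths of 3183 and 3075 UMIs. A list of macrophage markers, which includes Cd68, Fcgr1, C1qc and Cd14, stood at 33.2 and 35.1 UMIs per 10000 in the members. It stood at 6.70 and 21.1 in neutrophils and at 0.0167 and 0.0377 in B cells. The members stood above neutrophils on this list in both libraries, by less in KPC-3403. C1qc, left out of the tests along with the rule genes C1qa and C1qb, supplied 260 of the 732 and 142 of the 750 member UMIs. The list is therefore a description.

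Not every member carried the label's genes. In KPC-4545 a cell of 38111 UMIs, the deepest member, held 0 Lyz2 and 0 Ptprc with 151 UMIs of Dcn, 115 of Col1a2 and 38 of Col1a1, genes of fibroblast matrix. In KPC-3403 a cell of 3806 UMIs held 38 UMIs of Dcn and 17 of Col3a1. Another KPC-4545 cell, of 16061 UMIs and 0 Lyz2, held 26 UMIs of Csf1r, 330 of the collagen-cleaving protease gene Ctsk, 249 of the acid phosphatase gene Acp5 and 171 of Mmp9, all known from bone-resorbing osteoclasts. These cells were singled out after their values were seen. Markers of T and NK cells were at 0 in all members. Dendritic markers were at 0 in KPC-4545 and at 22 UMIs in 2 cells of KPC-3403, B-cell markers at 8 and 13 UMIs, neutrophil markers at 199 (171 of them the Mmp9 above) and 22, and haemoglobin genes at 25 and 84.

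**Figure D1:**
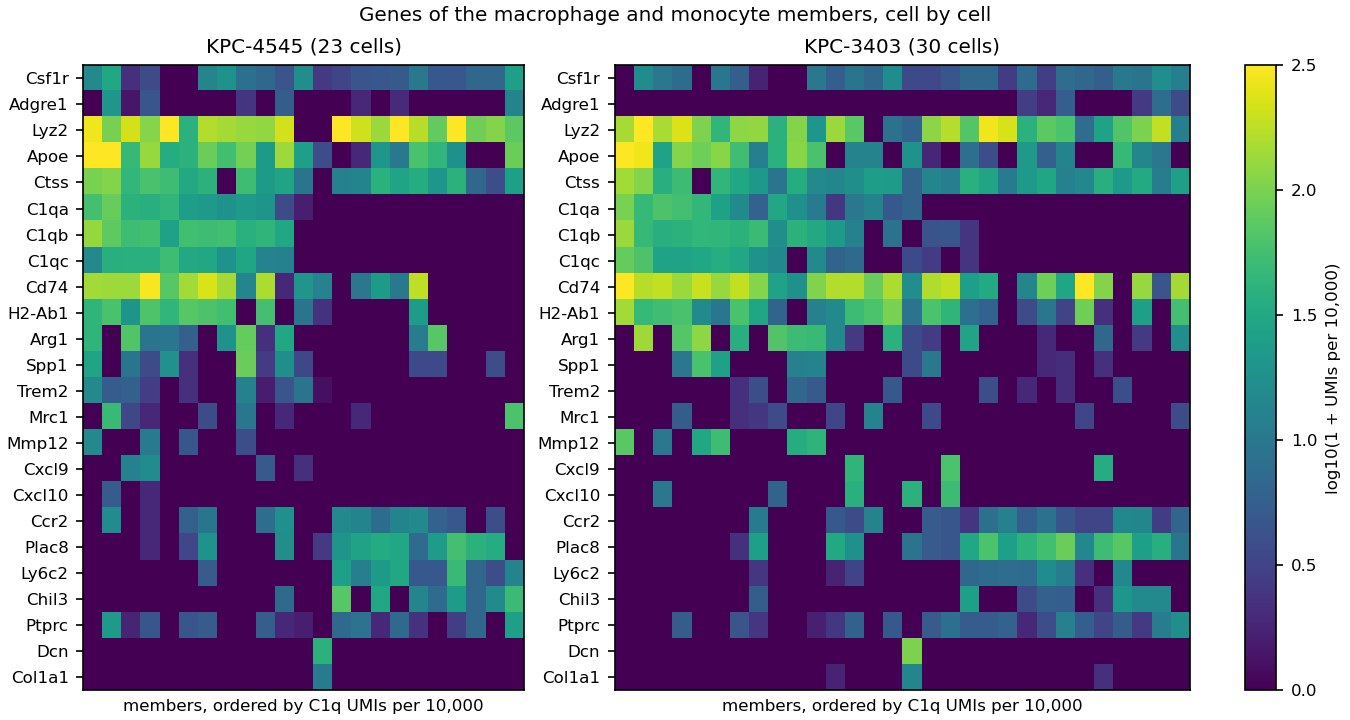
Each column is 1 member (23 of KPC-4545, 30 of KPC-3403), ordered from high to low C1q, and each row is 1 gene, with log10(1 + UMIs per 10000) as colour. Members with C1q at the left mostly hold Cd74 and H2-Ab1, members without C1q at the right mostly hold Plac8, Ly6c2 or Chil3, and Dcn lies in 1 cell of each library.

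Few cells supplied most of the tumours' RNA for a set of myeloid genes. The members held 453 of 454 C1qb UMIs counted in cells of whole KPC-4545, or 99.8% (98.8 to 100.0), and 282 of 296 in KPC-3403, or 95.3% (92.2 to 97.4). C1qa and C1qb belong to the rule. Among genes outside it, Msr1, a scavenger receptor, lay in members for 92.5% and 91.9% of its UMIs, and Fcgr1, the high-affinity IgG receptor, for 100% and 82.4%. Arg1, which breaks down arginine, lay in members for 96.6% (94.1 to 98.2) and 76.1% (71.1 to 80.6), and C3ar1, the receptor for complement fragment C3a, for 96.6% and 86.0%.

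For other genes most UMIs in KPC-3403 lay outside the members. Ccl2, the chemokine that draws CCR2-positive monocytes, lay in members for 58.1% (52.1 to 64.0) in KPC-4545 and 7.32% (5.73 to 9.19) in KPC-3403. Trem2, a lipid-sensing receptor, lay there for 55.6% and 12.7%, and Cd68, a lysosomal protein gene, for 70.5% and 23.7%. The KPC-3403 shares were lower for these 3 genes, as was the members' share of all UMIs in cells, at 2.23% against 6.52%. The Cd68 level in members was 3.90 and 3.56 UMIs per 10000. For Ccl2, 1 member held 103 of the 161 UMIs in KPC-4545, and without it the share was 33.3%.

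**Figure D2:**
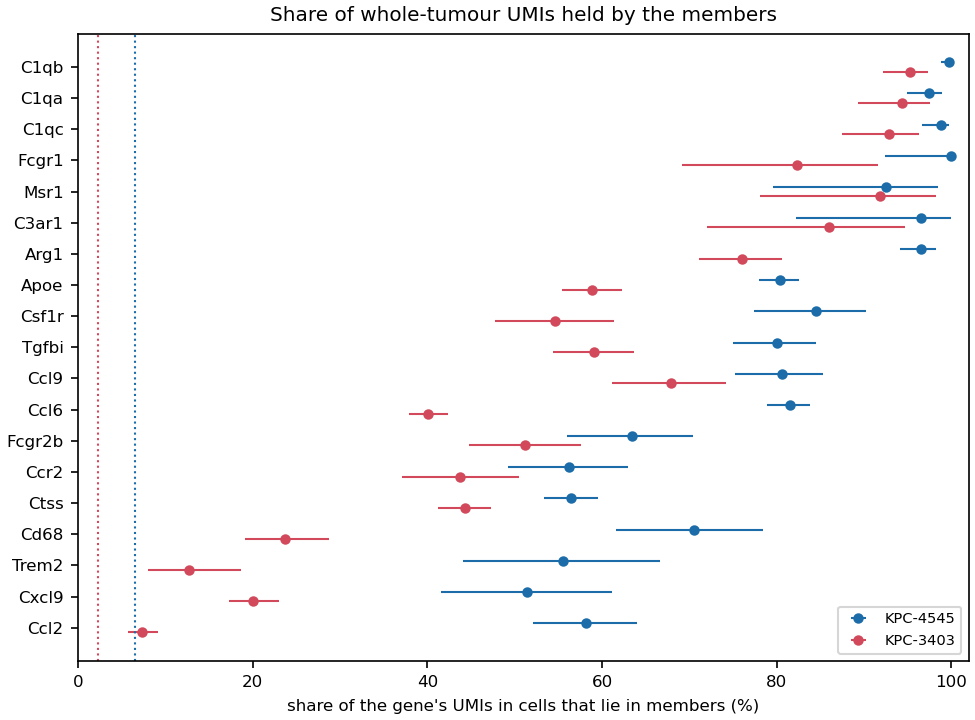
Points give, for 19 genes, the percentage of UMIs in cells of a whole library that lies in members, with exact Clopper-Pearson 95% intervals as bars, and dotted lines give the members' share of all UMIs in cells (6.52% in KPC-4545, 2.23% in KPC-3403). C1q genes sit above 90% in both libraries, while Ccl2 is at 58.1% in KPC-4545, 33.3% without 1 member, and at 7.32% in KPC-3403.

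Neutrophils are the other abundant phagocytes of these tumours and gave the class against which the members were tested. They were 17 cells in KPC-4545 and 93 in KPC-3403, with at least 50 UMIs of S100a8 and S100a9 per 10000 and under 2 UMIs of the receptor and C1q genes, at median depths of 2274 and 1950 UMIs. UMIs were summed per library and class, and each library served as its own block, which left 1 residual degree of freedom. Of 2709 genes tested, 235 were higher in members (8.67%) and 335 lower (12.4%) at an adjusted p under 0.05 (edgeR quasi-likelihood test, Benjamini-Hochberg). All levels below are UMIs per 10000, in KPC-4545 and then KPC-3403. DESeq2 called 81 higher and 135 lower, and without cells of shared barcodes edgeR called 200 and 253. With dendritic cells as a further class the counts were 153 and 211, with B cells 355 were higher, and with Lyz2 required in each member 380 were higher.

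Genes of antigen presentation were higher in members as a list. All 6 tested MHC class II genes were higher in members, with a median log2 difference of 7.07 against -0.03 over all genes. H2-Aa, an alpha chain of the class II molecule, stood at 21.9 and 33.2 in members and at 0 in neutrophils of both libraries, so it was at least 66.4-fold and at least 392-fold higher when set against 3 UMIs in each neutrophil sum (edgeR adjusted p = 6.01e-05). Cd74, the invariant chain that guides class II molecules to the endosome, stood at 70.7 and 118 in members against 0.440 and 0.338, a log2 difference of 7.47 (SE 0.36, edgeR adjusted p = 1.41e-05). H2-Ab1 and H2-Eb1 followed with log2 differences of 6.98 and 7.17. For these 4 called genes both member sums lay above both neutrophil sums, which restates the levels and is no further test. Class I genes, which most cells express, gave a median of 0.81, and 1 of 10, B2m, passed.

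Surface receptor genes moved in both directions. Of 19 Fc, scavenger and phagocytic receptor genes, 7 were higher and 3 lower. Mrc1, the mannose receptor, stood at 1.99 and 0.797 with 0 UMIs in neutrophils (edgeR adjusted p = 0.00506), and Axl, which binds dying cells through Gas6, at 1.27 and 1.22 with 0 in neutrophils, at least 3.85-fold and at least 14.4-fold higher. The 3 lower genes were Trem1, Clec4d and Clec4e, receptors known to amplify inflammation. Among chemokine and growth factor receptors, 4 of 16 were higher and 3 lower. Ccr2 stood at 5.35 and 4.55 against 0 and 0.225, a log2 difference of 4.24 (SE 0.63, edgeR adjusted p = 0.00301). P2ry6 and C3ar1 were among the others that were higher, and Il1r2, C5ar1 and Cxcr4 were lower.

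Monocyte genes did not move one way. Of 10 tested, 5 were higher (Fn1, Plac8, Ccr2, Vcan and Thbs1) and 3 lower, among them Chil3 and Ly6c2, with a median of 0.40. Fn1, which encodes fibronectin, stood at 13.7 and 22.8 in members against 0 and 0.197 (log2 difference 6.52, SE 0.49, edgeR adjusted p = 0.000124). Chil3, a chitinase-like secreted protein, stood at 7.52 and 3.09 against 78.3 and 25, lower in members of both libraries by 3.81 on the log2 scale (log2 difference -3.81, edgeR adjusted p = 6.01e-05). The neutrophil UMIs of Chil3 lay in 3 of 17 and 16 of 93 cells, with 45.6% in 1 cell in KPC-4545. At 1000 UMIs per cell, Chil3 was found in 30% and 25% of members against 20% and 15.9% of neutrophils, and Ly6c2 in 35% and 21.4% against 13.3% and 19.5%. The lower summed levels in members were thus not matched by a lower share of cells. Of the macrophage markers, 3 of 5 were higher, among them Fcgr1 and Aif1, and none lower, with a median of 4.34. All 3 tested resident-type genes, Selenop, Mrc1 and F13a1, were higher, and 3 of 8 complement genes were, among them Cfb and C3ar1, against 1 lower, C5ar1. For Cfb, 1 cell held 57.8% and 60.3% of the members' UMIs. Dcn and Col3a1 also passed as higher; every Dcn UMI of the members came from the 2 matrix-positive cells named above. The 3 tested haemoglobin genes were lower in members. The full list of 4 haemoglobin genes stood at 1.13 and 3.94 in members and 2.64 and 57.7 in neutrophils. It stood at 66.7 and 63.7 in B cells and at 752 and 715 in barcodes of at most 100 UMIs, so these genes were also abundant outside cells.

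The 2 classes carried different messenger molecules. Of 12 chemokine genes, 6 were higher in members and 3 lower. Cxcl9, which draws CXCR3-positive T cells, stood at 2.49 and 7.31 against 0 and 0.0282 (log2 difference 7.27, SE 0.72, edgeR adjusted p = 0.000521). It was found in 4 of 23 and 3 of 30 members, with 52.7% and 48.7% of its UMIs in 1 cell. Ccl2 stood at 7.30 and 3.19 against 0 and 0.394 (log2 difference 3.33, SE 0.72, edgeR adjusted p = 0.0148), and Ccl9, Ccl7, Ccl24 and Cxcl16 were also higher. The neutrophil attractants Cxcl2 and Cxcl3 went the other way. Cxcl2 stood at 22.2 and 24.7 in members against 60.1 and 144 (log2 difference -2.60, SE 0.31, edgeR adjusted p = 0.00118), and Ccl3 at 0.589 and 0.234 against 10.3 and 19.4 (log2 difference -5.70). Of 10 cytokine and growth factor genes, Tgfbi alone was higher and 6 were lower. Il1b stood at 27.2 and 38.8 against 67.8 and 51.5 (log2 difference -1.47, SE 0.27, edgeR adjusted p = 0.00713), and its natural antagonist Il1rn at 1.18 and 4.87 against 6.59 and 16.1. Il1b remained among the more abundant cytokine genes of the members although it was lower than in neutrophils.

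**Figure D3:**
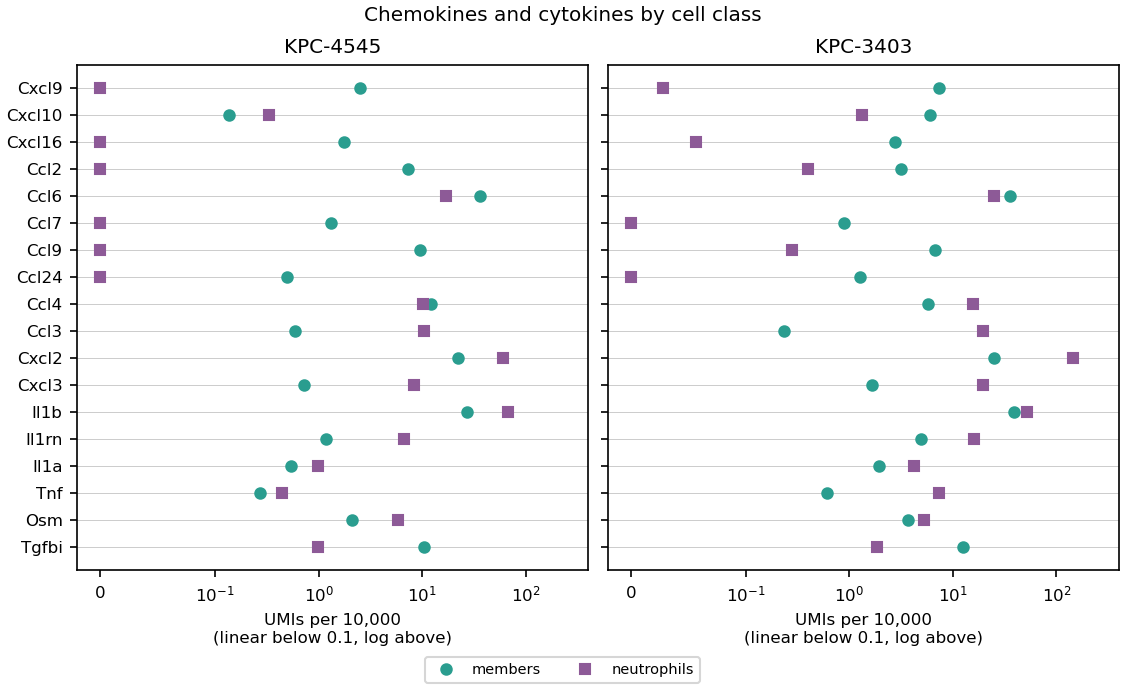
Each panel is 1 whole library, with UMIs per 10000 in the summed members (circles) and neutrophils (squares) for 18 chemokine and cytokine genes on an axis that is linear below 0.1 and logarithmic above. Cxcl9, Cxcl16, Ccl2, Ccl7, Ccl9 and Ccl24 lie further right for members in both libraries, and Cxcl2, Cxcl3, Ccl3, Il1b and Il1rn further right for neutrophils.

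Metabolic and nuclear genes divided as well. Arg1 stood at 15.3 and 11.6 in members against 0.110 and 0.141 (log2 difference 5.91, SE 0.43, edgeR adjusted p = 0.00011). Of 16 lipid and lysosome genes, 4 were higher, among them the cholesterol carrier Npc2 at 17.0 and 11.5 against 0.879 and 2.20, and Cd9 was lower. Of 14 myeloid transcription factor genes, 5 were higher, among them Klf4, Irf8, Id2 and Cebpa, and 3 lower (Cebpe, Cebpd and Cebpb). Of 11 proliferation genes 10 were lower and none higher, with a median of -4.38. Hmgb2, a chromatin protein of dividing cells, stood at 1.63 and 1.31 in members against 14.0 and 14.2 (log2 difference -3.87, SE 0.30, edgeR adjusted p = 0.000125). Granule genes of immature neutrophils, Ngp and Camp, stood at 439 and 283 and at 366 and 218 in the neutrophil class and at 0 in the members. Ngp was found in only 3 of 17 and 17 of 93 neutrophils and Camp in 3 of 17 and 13 of 93. In KPC-4545, 1 cell held 37.3% of the Ngp and 42.9% of the Camp UMIs. The proliferation gene Mki67 was likewise found in 11.8% and 9.68% of neutrophils.

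Dendritic cells, defined by at least 2 UMIs of Flt3, Zbtb46, Xcr1, Clec9a and Cd209a together, numbered 5 in KPC-4545 and 26 in KPC-3403. With under 10 cells in a library, members were not tested against them. In KPC-4545 this class held 50.8 UMIs of epithelial markers per 10000 and 3.52 of dendritic markers, against 6.06 of dendritic markers in B cells. In KPC-3403 it held 0.359 and 11.6, against 4.70 in B cells. The name is thus not borne out in KPC-4545, which also limits the alternatives with dendritic cells as a further class. Msr1 and C3ar1 were at 0 in this class in both libraries, as in B cells for C3ar1.

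How the members differed among themselves was followed through C1q. C1q-positive members, with at least 2 UMIs of C1qa, C1qb and C1qc together, numbered 11 and 19. C1q-zero members numbered 11 and 11, and 1 KPC-4545 member with 1 UMI entered neither group. Median depths were 7097 and 3806 UMIs in C1q-positive and 7809 and 8709 in C1q-zero members, so the C1q-zero members were the deeper group in both libraries. C1q-zero members qualified through Csf1r or Adgre1 by construction, and these genes are not compared. The fit held the neutrophil sums as a further class, so they shared in its estimate of the spread. Of 1726 genes tested, 8 were higher in C1q-positive members (0.463%) and 4 lower (0.232%), with 104 and 70 at an unadjusted p under 0.05.

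How many of these calls held depended on the fit. Without cells whose barcode was shared with another library, 0 genes were higher (90 at an unadjusted p under 0.05 by edgeR) and 1 was lower, Hp. Without the library block 1 was higher and 2 lower, and with dendritic cells as a further class also 1 and 2. DESeq2 called 13 higher, and 11 of the 12 genes remained under it. Each of the 12 genes kept its sign in every alternative that gave it a value.

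The 4 genes that were lower with C1q included 2 of the monocyte list. Ly6c2, a surface antigen of classical monocytes, stood at 0.321 and 0.926 UMIs per 10000 in C1q-positive against 11.8 and 6.24 in C1q-zero members (log2 difference -3.66, SE 0.56, edgeR adjusted p = 0.0153). It was found in 1 of 11 and 4 of 19 C1q-positive and in 10 of 11 and 7 of 11 C1q-zero members. Plac8 stood at 3.63 and 11.8 against 18.3 and 45.5 (log2 difference -2.03, SE 0.27, edgeR adjusted p = 0.00779) and was found in 10 of 11 and 11 of 11 C1q-zero members. Hp, which encodes the haemoglobin-binding haptoglobin, stood at 0.962 and 1.01 against 6.93 and 5.50 (log2 difference -2.54, SE 0.32, edgeR adjusted p = 0.00779). The chemokine gene Ccl4 stood at 2.46 and 1.18 against 22.1 and 11.4 (log2 difference -3.12, edgeR adjusted p = 0.0272), but 1 cell held 69.4% and 75.9% of its C1q-zero UMIs. For these 4 called genes both C1q-positive sums lay below both C1q-zero sums, which restates the levels and is no further test. Of 10 monocyte genes 2 passed, and the list's median was -1.43 against -0.02 over all genes. At 1000 UMIs per cell, Ly6c2 was found in 0% and 11.8% of C1q-positive and 60.0% and 36.4% of C1q-zero members, against 0.585% and 1.64% of B cells.

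The genes higher with C1q belonged to several lists. Arg1 stood at 29.3 and 19.8 against 5.67 and 1.37 (log2 difference 3.06, SE 0.44, edgeR adjusted p = 0.0117) and was found in 9 of 11 and 13 of 19 against 2 of 11 and 4 of 11 members, with 59.9% and 29.8% of the C1q-positive UMIs in 1 cell. Ctsd, a lysosomal protease, stood at 21.1 and 12.5 against 3.06 and 4.02 (log2 difference 2.35, SE 0.41, edgeR adjusted p = 0.0340). Hilpda, a hypoxia-induced lipid droplet gene, stood at 4.49 and 4.71 against 0.360 and 0.529, with 1 cell holding 78.6% and 44.6% of the C1q-positive UMIs. Bcl2a1b, of the BCL2 survival family, stood at 7.70 and 10.5 against 1.35 and 1.90. Mmp12, the macrophage elastase, stood at 1.82 and 7.83 with 0 UMIs in C1q-zero members, at least 6.73-fold and at least 24.7-fold higher, and 1 cell held 64.7% and 65.6%. Ltc4s, which makes leukotriene C4, was at least 14.2-fold and at least 6.63-fold higher. Cxcl10 stood at 0.321 and 10.8 against 0 and 0, so its call rested on KPC-3403, where 1 cell held 53.1%. Of the 128 Cxcl10 UMIs there, 42 and 15 lay in members with only 3 C1q UMIs each. The Cxcl10 call passed in 5 of 11 alternatives, with log2 differences from 1.13 to 9.48. Rgs1, a regulator of G-protein signalling, stood at 13.3 and 1.77 against 0.270 and 0, in 6 of 11 and 5 of 19 C1q-positive members, with 52.4% and 76.2% of the UMIs in 1 cell.

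MHC class II genes leaned to the C1q-positive members without passing. All 6 had a positive log2 difference, with a median of 2.15, and none passed. H2-Ab1 stood at 38.1 and 37.0 in C1q-positive against 2.07 and 14.4 in C1q-zero members (log2 difference 2.78, SE 0.70, edgeR adjusted p = 0.240), and Cd74 at 139 and 154 against 20.6 and 73.1 (edgeR adjusted p = 0.131). The C1q-positive values were alike in both libraries, while the C1q-zero values were lower in KPC-4545 than in KPC-3403. The C1q-zero values leaned on single cells. In KPC-4545, 1 cell held 18 of the 23 H2-Ab1 UMIs and 1 cell 62.0% of the Cd74 UMIs. In KPC-3403 these were 79 of 136 and 42.0%. A UMI of H2-Ab1 was found in 9 of 11 and 18 of 19 C1q-positive and in 2 of 11 and 8 of 11 C1q-zero members. Ly6c2 or Chil3 was found in 2 of 11 and 4 of 19 C1q-positive and in 10 of 11 C1q-zero members of each library, and 7 of the 11 in KPC-3403 held H2-Ab1 as well. Spp1, which encodes osteopontin, stood at 11.5 and 3.62 against 0.450 and 0.317 (log2 difference 4.28, edgeR adjusted p = 0.141), and Hmox1, which breaks down haem, at 2.99 and 3.03 against 0.270 and 0.529 (edgeR adjusted p = 0.0699).

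**Figure D4:**
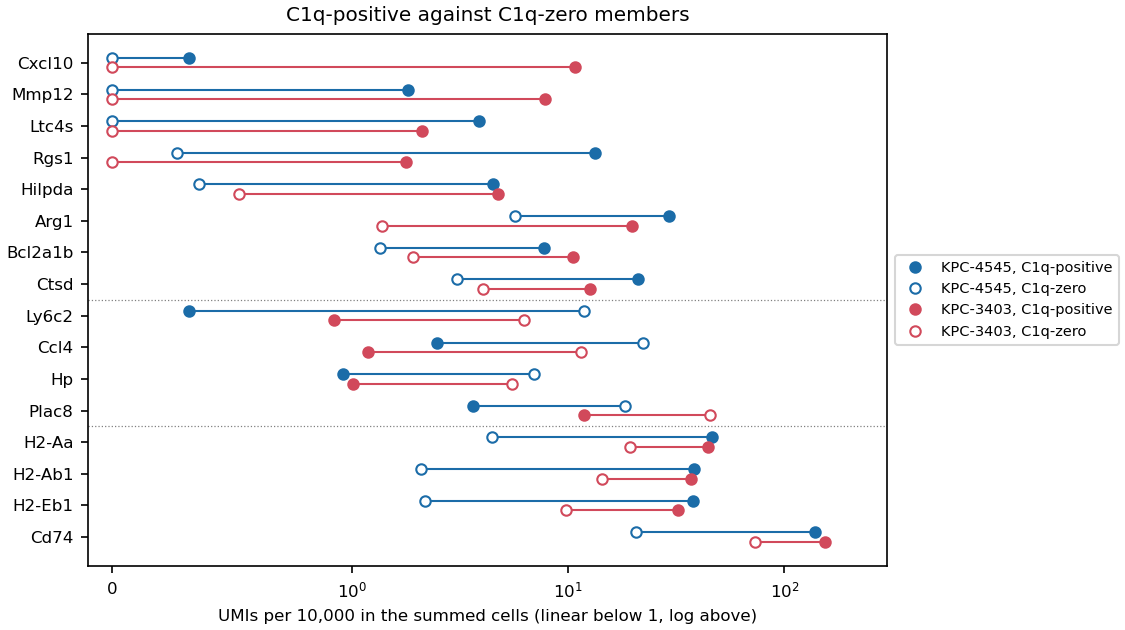
Filled points are C1q-positive and open points C1q-zero members, with UMIs per 10000 of the summed cells for each library on an axis that is linear below 1 and logarithmic above. The upper 8 genes are higher and the next 4 lower in C1q-positive members at an adjusted p under 0.05, and the 4 MHC class II genes at the bottom did not pass.

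Members of the lines were compared as 1 library against 1, so line and library cannot be told apart and no p is given. A gene counted as different with a ratio of at least 2 and an exact 95% interval that excluded 1, after scaling of the sums. Of 2825 genes with at least 20 UMIs, 169 were higher in KPC-4545 (5.98%) and 174 in KPC-3403 (6.16%). For 68 of the 169, over 50% of the UMIs came from 1 cell, against 13 of the 174. Without the deepest member of each library 95 genes were higher in KPC-4545, without matrix-positive members 108, and with Lyz2 required 95.

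The widest KPC-4545 differences were those single cells. Ctsk (330 UMIs against 0) and Mmp9 (171 against 0) came from 1 cell, and Sparc (209 against 8), Col1a2 (115 against 6) and Clu (238 against 22) mainly from the deepest one. Without the deepest member of each library Clu was higher in KPC-3403, as was the acute-phase gene Saa3, which had 314 UMIs against 152 with 300 of the 314 in 1 cell. Of 7 resident-type macrophage genes 5 were higher in KPC-4545 and none lower, and these too leaned on single cells. Stab1, a scavenger receptor, had 40 UMIs against 7 (5.59-fold, 2.48 to 14.8) in 9 cells, though 60.0% came from 1. The folate receptor gene Folr2 had 17 against 4, Pf4 29 against 7, and Mrc1 44 against 17 (2.53-fold, 1.42 to 4.73), with 11, 18 and 22 of their KPC-4545 UMIs in 1 cell. Cx3cr1, the fractalkine receptor, had 30 against 3 (9.79-fold, 3.04 to 50.1) in 10 cells. The monocyte attractants Ccl2 (161 against 68), Ccl8 (37 against 8) and Ccl12 (34 against 1) were higher in KPC-4545, with 103, 32 and 30 of these UMIs in 1 cell. Also higher were Spp1 (117 against 46) and Chil3 (166 against 66), with 58 and 89 of their KPC-4545 UMIs in 1 cell. Of 12 heat shock genes 4 were higher, led by Hspa1a with 126 against 10 UMIs, 66.7% of them in 1 cell. All 4 tested fibroblast markers were higher in KPC-4545 as well, and the full list of 5 markers held 380 UMIs in 1 member against 73 in 3. Of the 126 Hspa1a UMIs, 110 lay in C1q-positive members. A link between the heat shock and fibroblast genes was not tested.

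Of 11 cytokine and growth factor genes, 6 were higher in KPC-3403 and none in KPC-4545: Il1rn, Il1a, Il6, Tgfb1, Vegfa and Areg, the last with 23 UMIs in 1 cell. Il1rn had 104 UMIs against 26 (4.09-fold, 2.64 to 6.54), and Il1a 41 against 12. Il6 had 34 against 1, with 18 of the 34 in 1 cell. Tgm2, a transglutaminase, had 187 against 47 (4.06-fold, 2.94 to 5.72) in 23 of 30 members, and Csf2rb, a chain of the GM-CSF receptor, 142 against 42 (3.45-fold, 2.43 to 5.00) in 22 members. Plac8 had 570 against 237 (2.46-fold, 2.11 to 2.87). Cd274, which encodes the checkpoint ligand PD-L1, had 29 against 4 (7.41-fold, 2.60 to 29.0) in 12 members. Acod1, which makes itaconate, had 46 against 0 in 4 members, with 28 of the 46 in 1 cell, at least 15.7-fold higher. Interferon-induced genes split: Cxcl10 (128 against 3), Cxcl9 (156 against 55) and Gbp2 (103 against 35) were higher in KPC-3403, Cxcl9 in 3 members, and Irf7 (67 against 21) and Bst2 (141 against 58) in KPC-4545. In KPC-3403, 1 cell held 68 of the Cxcl10 and 76 of the Cxcl9 UMIs, and another held 42 and 51. For Gbp2, 1 cell held 40.8%. The 3 tested haemoglobin genes were higher in KPC-3403, and such genes were abundant in the low-count barcodes of both libraries, as given above. Of 6 MHC class II genes only H2-DMb1 was called, higher in KPC-3403; H2-Ab1 had 576 against 392 UMIs, 1.5-fold.

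**Figure D5:**
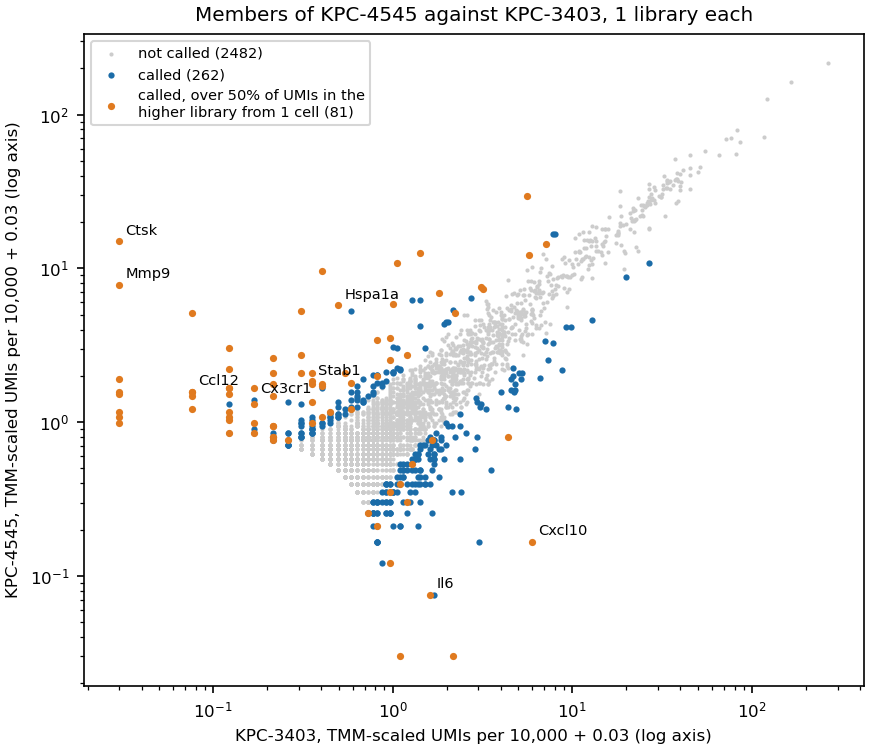
Each point is 1 gene, with its level in the KPC-3403 members on the horizontal and in the KPC-4545 members on the vertical axis, in scaled UMIs per 10000 plus 0.03 on log axes. Blue and orange points passed the ratio of 2 with an interval excluding 1, and orange points have over 50% of the UMIs of the higher library in 1 cell, as do Ctsk and Mmp9 with all of theirs.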

How the data were processed

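The deposited files are UMI counts per gene and barcode of 4 libraries, unfiltered and not normalized, made by the authors with 5' chemistry and counted on mm10. Cell Ranger 6.1.1 is the version that the submitters' processing notes give, and the file headers read Cell Ranger 4. Matrices list 32285 genes. Cells passed the thresholds given above, and no doublet caller was run; instead an alternative left out members with at least 2 UMIs of other cell types' markers. Members, gene lists and tests were chosen with earlier results of these data known.

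Counts were summed per library and class and fitted with edgeR 4.0.16 (robust quasi-likelihood, TMM, filterByExpr, R 4.3.3), library as block because the classes of a library come from 1 suspension. The C1q groups were fitted together with the neutrophil sums, which entered the scaling, the filter and the estimate of the spread. The p-values rest on how far the differences between classes varied between 2 libraries, whose animals the labels do not give. DESeq2 1.42.0 was an alternative. Low counts were removed by filterByExpr, so genes kept for 1 class are among those tested. Dendritic cells were planned as a class but numbered 5 in 1 library and were left out of the test. Line ratios have exact conditional binomial 95% intervals, and folds against 0 use 3 UMIs per library. Named genes were, per test, up to 10 per direction by log2 difference with adjusted p under 0.05 and 50 CPM, or for lines by the interval bound nearest to 1, up to 4 per list, the rule genes, and 25 genes added after their values were seen (such as Mrc1, Ccl2 and Cd274). The tests were tested on simulated data. Alternatives changed filters, scaling, block, classes and members. Some items are not reported here.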

Additional observations from a re-analysis of the deposited data

Results flagged for a closer look

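Of 59 genes looked at, 18 had opposite signs of the difference between C1q-positive and C1q-zero members in KPC-4545 and KPC-3403, and the 4 given here reached a log2 difference of 1 in both, with 10 CPM added to each level. With 1 library per line the difference between the lines was not tested. Dcn, a matrix proteoglycan, had 0 against 151 UMIs in KPC-4545 and 38 against 0 in KPC-3403, from 1 C1q-zero and 1 C1q-positive cell, which bounds the log2 differences at -5.41 or lower and 3.33 or higher with a floor of 3 UMIs. Saa3, an acute-phase protein gene, differed by -4.52 and 5.48, with 10 UMIs in C1q-positive and 304 in C1q-zero members of KPC-4545, and 150 and 2 in KPC-3403. Most of the 304 came from 1 cell, as given above, and with Lyz2 required 14 Saa3 UMIs remained in KPC-4545. In KPC-3403, 1 cell held 51.3% of the Saa3 UMIs, and the 2 C1q-zero UMIs lie under the floor of 3. Hspa1a, a heat shock protein gene, differed by 2.99 and -1.15, with 110 and 16 UMIs in KPC-4545 and 3 and 7 in KPC-3403. Tgm2 differed by 1.46 and -1.02, with 33 and 14 UMIs in KPC-4545 and 67 and 120 in KPC-3403.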

How the results depend on the processing

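Genes higher in members than in neutrophils numbered 235, and 81 with DESeq2, 380 with Lyz2 required, 355 with B cells and 153 with dendritic cells as a further class; those lower numbered 335, and 135 with DESeq2 and 211 with dendritic cells. Pairing by the library block changed these little: without the block they were 297 and 351. Between C1q groups, the 8 higher genes became 45 with no filter on low counts, 13 with DESeq2, 15 without matrix-positive members, 15 with Lyz2 required, 13 with C1q called by rate, 1 with dendritic cells and 0 without shared barcodes (90 at an unadjusted p under 0.05). The 4 lower genes became 19, 9 with C1q called by rate, 1 with B cells, 2 with dendritic cells and 1 without shared barcodes. Without the block, 1 was higher and 2 lower. The 169 genes higher in KPC-4545 became 108 without members that hold other cell types' markers, 108 without matrix-positive members, 95 without the deepest members, 95 with Lyz2 required, and 10 after thinning to 1000 UMIs, which also reduced the 174 higher in KPC-3403 to 21, with 369 genes tested. The ratio of KPC-4545 to KPC-3403 reversed for Clu, which had 0 UMIs against 22 without the deepest members and with Lyz2 required, so that its ratio is at most 0.148 and 0.175 at the floor of 3 UMIs, and for Saa3, to 0.170 without other cell types' markers, 0.100 without the deepest members, 0.386 after thinning, 0.221 without matrix-positive members and 0.118 with Lyz2 required. The difference in shares between whole and enriched libraries ranged from 0.970 to 3.14 percentage points when 1 library was left out. The causes were not tested. The C1q comparison with 1000 UMIs per cell and without other cell types' markers was not run, with under 10 cells in a class, and leaving out a library left no residual degrees of freedom for the gene tests. The number of members, 23 and 30, limits every share and ratio.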

Other observations

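Of 8 checkpoint genes tested against neutrophils, 0 were called higher in members and 3 lower, Cd274, Lilrb4a and Siglece. Over all genes tested 8.67% were higher and 12.4% lower, so 0 of 8 higher is near the share over all genes. Of 7 iron and haem genes 3 were lower, Fth1, the haemoglobin gene Hba-a1 and Slc40a1, the iron exporter ferroportin. Slc40a1 had 0 UMIs in members of both libraries and 6 and 29 in neutrophils. The ferritin gene Fth1 was abundant in both classes, at 161 and 166 UMIs per 10000 in members against 170 and 260 in neutrophils.

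Immediate early genes, which respond within minutes to stimulation, were higher for 2 of 19 (Klf4 and Fosb) and lower for 5. Between the lines, Ctsk lay in 3 cells of whole KPC-4545 with 416 UMIs, 330 of them in 1 member, and in 34 cells of whole KPC-3403 with 456 UMIs, none of them a member.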
